A study of Mus musculus with 2 samples.

Results

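JAK kinases and STAT factors carry the signals of cytokine receptors in T cells, and the RNA levels of 9 of their genes were examined in mature thymocytes with constitutive CD8. The genes were chosen by symbol, with earlier results of these data known. They were the kinases *Jak1*, *Jak3*, and *Tyk2* and the factors *Stat2*, *Stat3*, *Stat4*, *Stat5a*, *Stat5b*, and *Stat6*. All 9 were found among the 48321 genes of the count tables. All 9 also passed the minimum of 10 counts in both libraries together, as did 15949 genes in all. The RNA-seq libraries, 2 replicates of a single group, were made from mature thymocytes without CD4 (CD24lo TCRβhi) sorted from mice called *MHC-II o*:*CD8ab-Tg*, on the C57Bl/6 background. These mice are *I-Ab-/-* and so lack MHC class II, and their *Cd8* Δab/Δab alleles make no endogenous CD8, since an exon of *Cd8b1* was removed and the first exon of *Cd8a* was replaced by a human CD2 cDNA. Both CD8 chains came instead from cDNAs in the *Rosa26* locus (*Rosa26* 8a/8b), expressed after recombination by *Cd4-Cre*, which acts in thymocytes. The age of the mice and the number of mice behind each library are not given in the sources used here, so p-values between the libraries describe these samples only. No wild-type library was analysed here, and the values are levels within these cells.

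A cytokine brings together receptor chains whose intracellular tails hold JAK kinases. The kinases phosphorylate each other on paired tyrosines of the activation loop, then the receptor tails, and then STAT factors docked there, which pair through their phosphotyrosines, enter the nucleus, and bind DNA. In developing CD8 T cells, IL-7 and IL-15 signal mainly through JAK1, JAK3, and STAT5, and IL-4, a cytokine linked to innate memory-like CD8 thymocytes, signals through JAK1, JAK3, and STAT6.

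The libraries held 16732644 and 16245849 counts on genes, so that 3 counts, taken as the smallest level that could be shown, equalled 0.179 and 0.185 CPM (the usual scale on which the counts on all genes of a library sum to the same total). T cell markers were high, with *Cd3e* at 408 and 368 CPM and *Cd8b1* at 775 and 786 CPM, and *Cd4* was at 0.717 and 1.66 CPM. Counts on *Cd8a* and *Cd8b1* can include reads from the cDNAs in *Rosa26*, which were not told apart from those of the *Cd8* locus. The titles of the libraries name cells without either co-receptor and their cell type fields name CD8+ cells. The summed level of 17 markers of B cells, myeloid cells, red cells, and thymic stroma was 32.3 and 36.1 CPM, and 5 of the 17 reached 1 CPM in both. *Xist* stood at 2.03 CPM in the first library and 1555 CPM in the second, whereas *Ddx3y*, on the Y chromosome, had 2450 counts and 0 counts, respectively. The libraries therefore did not come from one and the same animal, and sex and replicate cannot be told apart in any difference between them.

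The genes of each family are related, and a read of 50 bases can be assigned to a gene only where its sequence is not shared. The coding sequences of the kinases are far apart at this scale. In pairwise alignments of the GENCODE M21 transcripts, *Jak1* and *Jak3* were identical at 59.4% of aligned coding bases, *Jak1* and *Tyk2* at 63.2%, and *Jak3* and *Tyk2* at 64.6%, and the longest identical run among these pairs was 22 bases. The bases that encode the activation loop are shown because this is a part of the kinases that the family has in common, with the codons of the paired tyrosines in capitals. They lie on GRCm38 in exon 22 of *Jak1* (chr4:101156401-101156460, minus strand), exon 21 of *Jak3* (chr8:71686058-71686117, plus strand), and exon 22 of *Tyk2* (chr9:21107873-21107932, minus strand), and the first tyrosine is codon 1033, 976, and 1074, respectively.
Jak1: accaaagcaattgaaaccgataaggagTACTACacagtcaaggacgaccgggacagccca
Jak3: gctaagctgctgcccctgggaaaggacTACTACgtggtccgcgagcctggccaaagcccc
Tyk2: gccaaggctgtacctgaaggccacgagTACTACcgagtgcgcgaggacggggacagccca
Of these 60 bases, 28 were identical between *Jak1* and *Jak3*, 37 between *Jak1* and *Tyk2*, and 35 between *Jak3* and *Tyk2*. None of the 50-base windows of the *Jak1* and *Tyk2* transcripts occurred in a transcript of another gene on either strand (0%), and 355 windows of *Jak3* (8.94%) occurred in *Insl3*, a gene that overlaps it.

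*Stat5a* and *Stat5b* were the exception among the STAT genes. Both encode STAT5 proteins that respond to cytokines of the IL-2 and IL-7 family, and their genes are neighbours on chromosome 11 of GRCm38, *Stat5b* on the minus strand from 100780731 to 100850724 and *Stat5a* on the plus strand from 100859351 to 100885169. Their coding sequences were identical at 90.7% of 2343 aligned bases, against 58.2% to 65.5% for the other pairs of STAT genes. The longest identical run was 324 bases, from base 571 to 894 of both coding sequences, and covered exons 7 to 9 of *Stat5a* and exons 6 to 8 of *Stat5b*. With its introns this run spanned 961 bases of the genome in both genes. Its middle 120 bases, from which no read of 50 bases can be assigned to a single gene, are shown as spliced from chr11:100874125-100874449 (plus strand, *Stat5a*) and chr11:100798275-100798599 (minus strand, *Stat5b*).
Stat5a and Stat5b: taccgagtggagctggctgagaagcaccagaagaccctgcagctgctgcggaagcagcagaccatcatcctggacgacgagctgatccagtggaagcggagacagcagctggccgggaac
The bases around the tyrosine that JAK kinases phosphorylate, codon 694 of *Stat5a* and codon 699 of *Stat5b*, are shown next, with the bases that differ between the genes in capitals. They are spliced from chr11:100881182-100882065 (plus strand, exons 17 to 19 of *Stat5a*) and chr11:100783773-100787212 (minus strand, exons 16 to 18 of *Stat5b*).
Stat5a: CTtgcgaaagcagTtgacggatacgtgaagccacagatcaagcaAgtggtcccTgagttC
Stat5b: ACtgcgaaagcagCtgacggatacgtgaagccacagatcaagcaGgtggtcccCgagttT
Here 6 of 60 bases differed, and the tyrosine codon itself did not. Among stretches of 60 aligned bases without gaps, the one with the most differences, 19, lay near the start of both coding sequences, spliced from chr11:100861422-100861736 (plus strand) in *Stat5a* and from chr11:100805011-100808439 (minus strand) in *Stat5b*.
Stat5a: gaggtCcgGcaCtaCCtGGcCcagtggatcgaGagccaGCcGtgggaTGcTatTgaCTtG
Stat5b: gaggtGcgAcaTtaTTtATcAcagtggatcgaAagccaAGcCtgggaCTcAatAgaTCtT
Over the whole transcripts, 608 windows of 50 bases were shared between these genes. With 23 more that *Stat5a* shared with *Stat3* across the strands, 16.4% of the windows of *Stat5a* and 11.8% of those of *Stat5b* occurred in another gene. The highest share, 28.6%, was that of *Stat4*, in the overlapping gene *Gm28177*. The principal transcripts of *Stat2*, *Stat3*, and *Stat6* had no such window. Windows were taken from the principal transcript of each gene and searched for in all transcripts of other genes.

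**Figure D1:**
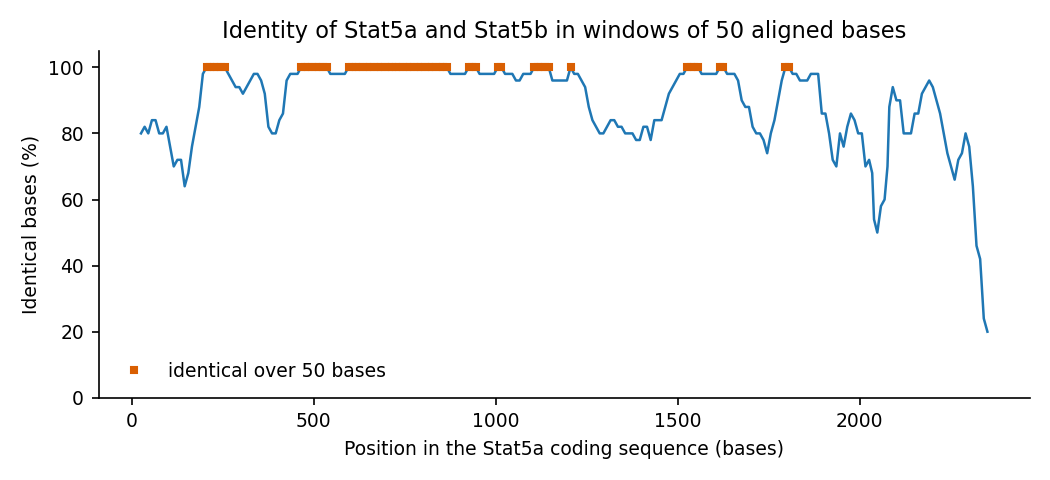
Percent of identical bases (vertical axis) in windows of 50 aligned bases along the *Stat5a* coding sequence (horizontal axis, position of the window's middle in bases), gaps counted as not identical, with fully identical windows as squares. Of 235 windows, 61 were identical, the median was 96.0%, and the lowest, 20.0%, was at the end of the coding sequence.

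*Jak1*, whose kinase serves the receptors for IL-2, IL-4, IL-7, and IL-15 and those for interferons, was by far the most abundant of the kinases. The counts were 16887 (replicate 1) and 18049 (replicate 2), or 1009 and 1111 CPM, with a mean of 1060.1 ± 72.0 CPM (SD, n = 2). The Wilson 95% confidence intervals, which like all intervals here cover counting error only, were 994 to 1025 CPM and 1095 to 1127 CPM and did not overlap. By CPM it ranked 55 of the 15949 genes. *Jak3*, whose kinase binds the common γ chain, had 4159 and 4484 counts, or 249 and 276 CPM, with a mean of 262 ± 19.4 CPM (SD, n = 2). *Tyk2*, whose kinase serves the receptors for type I interferon, IL-10, and IL-12, was the lowest kinase, with 1512 and 1505 counts, or 90.4 and 92.6 CPM, and a mean of 91.5 ± 1.61 CPM (SD, n = 2). The libraries of *Tyk2* were closer to each other than those of *Jak1* and *Jak3*, both of which were higher in replicate 2.

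CPM does not account for gene length, so the kinases were compared per kb of annotated exon. On this scale *Jak1* was at 147 ± 9.96 CPM per kb, *Jak3* at 49.0 ± 3.63 CPM per kb, and *Tyk2* at 13.3 ± 0.235 CPM per kb (SD, n = 2). The ratio of *Jak1* to *Jak3* was 3.01 in replicate 1 and 2.98 in replicate 2, and that of *Jak1* to *Tyk2* was 10.6 and 11.4. *Jak1* thus made up 70.1% and 70.3% of the counts per kb on the 3 kinases, *Jak3* 23.3% and 23.6%, and *Tyk2* 6.61% and 6.17%. The order of the kinases was the same in both libraries, with ranges that did not overlap.

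**Figure D2:**
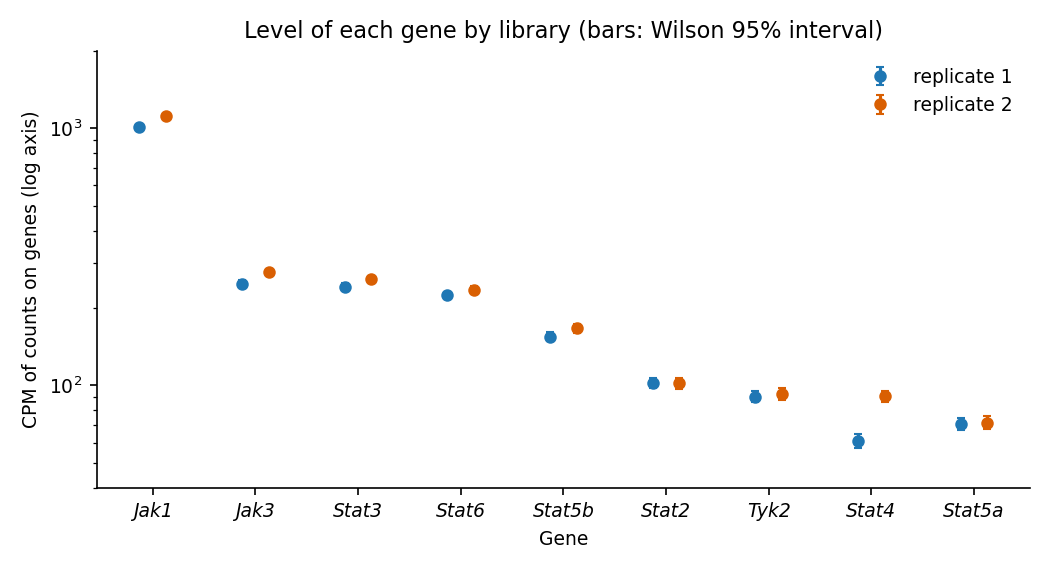
CPM of counts on genes (vertical log axis) of the 9 genes in replicate 1 and replicate 2, with bars for the Wilson 95% interval of each library. *Jak1* stands near 1000 CPM in both libraries (1009 and 1111), and *Stat4* is the gene whose libraries lie farthest apart, at 60.7 and 90.6 CPM.

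Among the STAT genes, *Stat6* and *Stat3* were the highest by CPM. *Stat6*, whose protein transmits IL-4 signals, had 3756 and 3817 counts, or 224 and 235 CPM, with a mean of 230 ± 7.41 CPM (SD, n = 2). *Stat3*, which acts downstream of IL-6, IL-10, and IL-21, had 4055 and 4197 counts, or 242 and 258 CPM, with a mean of 250.3 ± 11.3 CPM (SD, n = 2). These levels by CPM cannot rank the genes, since *Stat3* has 9527 bases of annotated exon and *Stat6* has 4402. Per kb, *Stat6* was at 52.2 ± 1.68 CPM per kb and *Stat3* at 26.3 ± 1.19 CPM per kb (SD, n = 2). *Stat6* made up 34.6% and 33.1% of the counts per kb on the 6 STAT genes, the highest share in both libraries.

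The STAT5 genes differed from each other in level. *Stat5b* had 2593 and 2706 counts, or 155 and 167 CPM, and *Stat5a* had 1186 and 1166 counts, or 70.9 and 71.8 CPM. The means were 161 ± 8.20 CPM and 71.3 ± 0.631 CPM (SD, n = 2). *Stat5b* was higher in each library, and the ratio per kb of exon was 2.82 in replicate 1 and 2.99 in replicate 2. This ratio depended on the length used. Divided by the length of the principal transcripts, 5213 bases for *Stat5b* and 3888 for *Stat5a*, it was 1.68 ± 0.0709, and divided by the number of 50-base windows found in no other gene it was 1.59 ± 0.0669 (SD, n = 2). *Stat5b* remained higher under each of these lengths, and reads from the 608 windows that both share cannot be assigned to either gene.

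*Stat2* and *Stat4* were among the lower genes. *Stat2*, which acts with IRF9 in the response to type I interferon, had 1708 and 1656 counts, or 102.1 and 101.9 CPM, and a mean of 102 ± 0.101 CPM (SD, n = 2), the smallest spread of the 9 genes. *Stat4*, which transmits IL-12 signals toward interferon-γ production, had 1016 and 1472 counts, or 60.7 and 90.6 CPM, and a mean of 75.7 ± 21.1 CPM (SD, n = 2), the largest spread relative to the mean. Per kb, *Stat2* was at 17.2 in each library, and *Stat4* was at 15.7 CPM per kb in replicate 1 and 23.4 in replicate 2. These genes therefore changed places between the libraries.

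Per kb of exon, the order of the 9 genes was *Jak1*, *Stat6*, *Jak3*, *Stat5b*, *Stat3*, *Stat4*, *Stat2*, *Tyk2*, and *Stat5a*. The ranges of the libraries did not overlap for 6 of the 8 pairs of neighbours in this order. They overlapped for *Stat6* and *Jak3*, at 51.0 to 53.4 and 46.4 to 51.6 CPM per kb, and for *Stat4* and *Stat2*. An exact permutation test over 2 paired libraries cannot give a p under 0.5, so no p is given for the order. Among 11855 protein-coding genes that passed the minimum count, *Jak1* ranked 190 per kb, *Stat6* 640, *Jak3* 694, and *Stat5a*, the lowest, 4135. The median of the 9 genes was 26.3 CPM per kb, against 5.71 for these protein-coding genes.

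The length used moved several genes within this order. Under each length all counts on the gene were kept, and only the number of bases they were divided by changed. The values are thus not levels of the shorter regions alone. *Stat3* was at 26.3 CPM per kb of exon and at 55.4 per kb of its principal transcript, since it has 9527 bases of annotated exon and a principal transcript of 4516. Of its 14 annotated transcripts 9 are of the retained intron type, and without them 6320 bases of exon are left. *Stat5a*, with 0 such transcripts, also moved, from 9.94 and 10.1 CPM per kb of exon in the libraries to a mean of 18.3, and it stood above *Tyk2* per unique window. *Jak1* was first under every length tried, and *Jak3* was above *Stat6* under each length other than the full set of exons. *Stat3* was above *Stat5b* per kb of the principal transcript and below it per kb of exon.

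**Figure D3:**
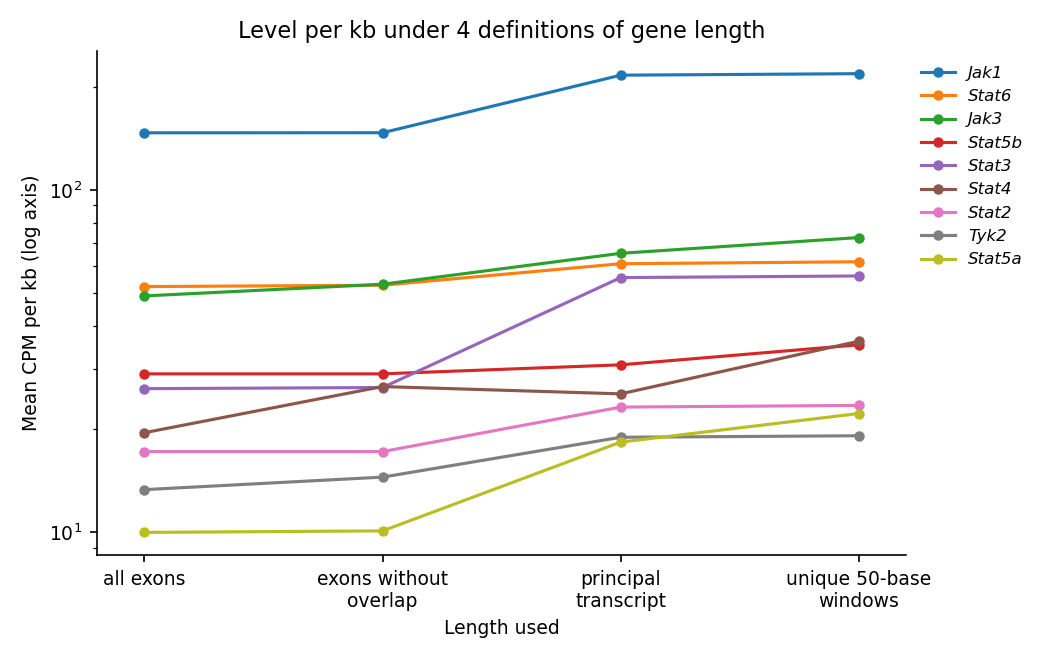
Mean CPM per kb (vertical log axis) of each gene under 4 definitions of length (horizontal axis), with a line for each gene. *Jak1* stays on top, between 147 and 218 CPM per kb, and *Stat3* rises from 26.3 to 56.0.

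Some reads on these genes could also belong to genes that overlap them, and the strand setting of the counting is not given in the sources used here. Of the uniquely aligned reads, 55.9% in each library fell on no annotated feature, and 40.6% and 41.2% were counted on genes. The part of the strand setting in these shares was not tested. *Stat4* shares 1033 bases of exon, 26.7% of its own, with the noncoding gene *Gm28177* on the same strand, where reads would be ambiguous, and *Gm28177* had 10 and 4 counts. Without the bases shared on either strand *Stat4* was at 21.4 and 31.9 CPM per kb and *Stat3* at 25.6 and 27.3, so that the range of *Stat4* spanned that of *Stat3*. *Jak3* shares 404 bases with *Insl3*, which had 33 and 47 counts, and without these *Jak3* was at 53.0 CPM per kb. *Tyk2* is crossed on the opposite strand by the antisense gene *1700084C06Rik*, which lies over *Tyk2* exons with 554 of its own 750 exon bases. That gene had 252 and 249 counts per kb of exon and *Tyk2* had 220.2 and 219. Since the strand setting is not given, how reads were assigned where these genes overlap is not known. *Stat3* and *Stat5a* end tail to tail with 72 bases in common, and *Stat6* shares 40 bases with *Nab2* and *Jak1* shares 4 with *Raver2*.

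The libraries were then compared gene by gene for differences beyond counting error, with a two-sided exact binomial test and Benjamini-Hochberg adjustment over all genes with at least 10 counts. Where a call needed both an adjusted p below 0.05 and a 2-fold difference, 0 of the 9 genes differed, against 1.52% of the genes tested. At an unadjusted p under 0.05 from the same test, 6 of the 9 differed, against 27.7% of all genes tested and 45.3% of the 5719 genes with at least 1000 counts. In the exact test of edgeR, run with an assumed biological coefficient of variation (BCV) of 0.1 on top of counting error, 0 of the 9 differed at an adjusted p under 0.05 and 1 at an unadjusted p under 0.05. Under that test 0.464% of all genes had an adjusted p under 0.05, 0.376% when a 2-fold difference was also needed, and 5.17% had an unadjusted p under 0.05. This comparison is between the libraries and not between conditions.

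With no minimum fold, 4 of the 9 genes differed at an adjusted p under 0.05 in the exact binomial test, all higher in replicate 2, against 16.3% of the genes tested (13.5% higher and 2.82% lower in replicate 2) and 31.2% of the genes with at least 1000 counts. The differences were small for all but 1 of them. *Jak1* was higher by 0.14 on the log2 scale (adjusted p = 3.1e-17, exact binomial test), *Jak3* by 0.15 (adjusted p = 2.84e-05), and *Stat3* by 0.09 (adjusted p = 0.0277), where the median gene was itself higher by 0.08. With edgeR's TMM library sizes, which moved that median to -0.00, the calls on *Jak3* and *Stat3* were lost, and that on *Stat3* was also lost with DESeq2 size factors. Mitochondrial and ribosomal RNA genes held 16.0% of the counts in replicate 1 and 12.6% in replicate 2. With totals without these genes the median was 0.02 and the call on *Stat3* was lost as well. The other 5 genes had log2 ratios from -0.00 for *Stat2* to 0.10 for *Stat5b*.

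*Stat4* was the gene with a larger difference. Its level was 1.49-fold higher in replicate 2, with a log2 ratio of 0.58 (adjusted p = 5.96e-21, exact binomial test) and Wilson intervals of 57.1 to 64.6 CPM and 86.1 to 95.4 CPM that did not overlap. The log2 ratio was 0.50 with TMM library sizes and 0.52 with DESeq2 size factors. In the exact test of edgeR with a BCV of 0.1 the adjusted p was 0.416 and the unadjusted p 0.00682, so the call did not hold where variation between samples was allowed for. Of the 5719 genes with at least 1000 counts, 46 (0.804%) differed by as much in either direction.

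**Figure D4:**
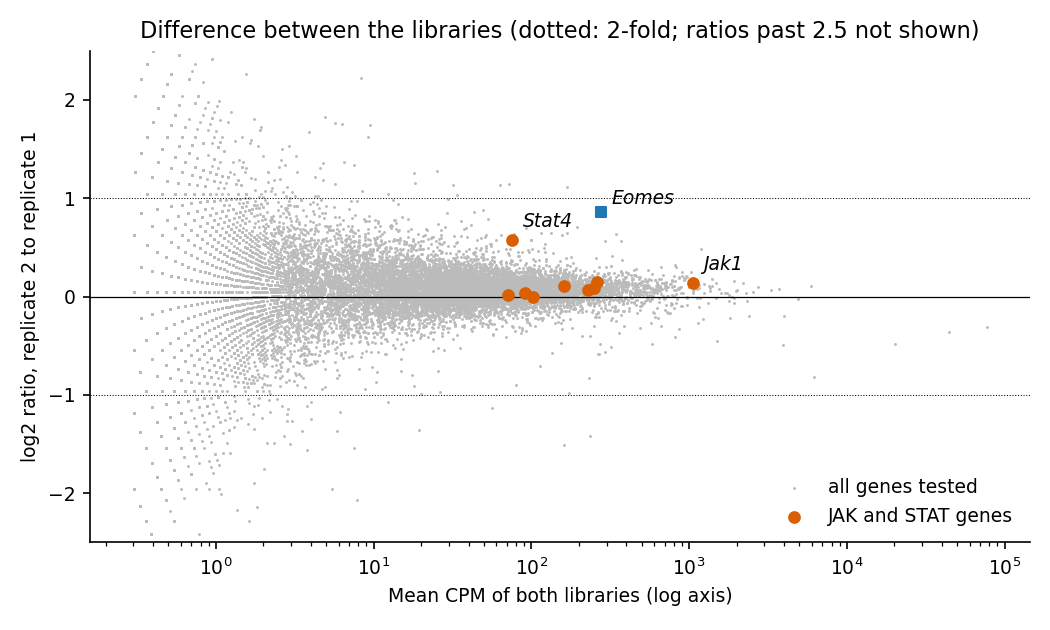
The log2 ratio of replicate 2 to replicate 1 (vertical axis) against the mean CPM of both libraries (horizontal log axis) for the 15949 genes tested in grey, with the 9 JAK and STAT genes as circles and *Eomes* as a square. Apart from *Stat4*, at 0.58, the circles lie between -0.00 and 0.15, and all 9 lie inside the dotted lines for a 2-fold difference.

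Genes of the innate memory-like CD8 state were also higher in replicate 2, and 2 libraries cannot show whether they vary together with *Stat4*. All 4 markers listed for this state were higher at an adjusted p under 0.05 with no minimum fold (exact binomial test), where 13.5% of all genes were. Of the genes with at least 1000 counts, as each of the 4 had, 31.2% differed in either direction. The summed level of the 4 was 904 and 1182 CPM. In the exact test of edgeR *Eomes* alone of the 4 kept an adjusted p under 0.05, at 0.0119. *Eomes*, a transcription factor of memory CD8 T cells, was at 196 and 355 CPM, a log2 ratio of 0.86, and *Cxcr3*, a chemokine receptor, was at 92.1 and 118 CPM. Among markers of mature thymocytes, *S1pr1* and *Ccr7* were lower in replicate 2, where 2.82% of all genes were, with log2 ratios of -0.48 and -0.30, and the log2 ratios of *Klf2* and *Il7r* were -0.06 and -0.00. Of 6 T cell markers, 3 were also lower (*Cd3e*, *Cd3g*, and *Trac*) and 1 was higher (*Cd8a*, whose counts can include the *Rosa26* cDNA). In the exact test of edgeR 0 of these 6 had an adjusted p under 0.05, and that of *S1pr1* was 0.707. *S1pr1*, the receptor that guides egress, was at 318 and 227 CPM. Of 3 iNKT markers, *Klrb1c* was at 22.1 and 27.5 CPM (adjusted p = 0.0174, exact binomial test), *Zbtb16* at 18.2 and 21.6 CPM (adjusted p = 0.134), and *Il4* at 0.657 and 0.431 CPM. The part of these cell states in the difference of *Stat4* was not tested, and in such bulk libraries fewer cells of a type and less RNA per cell cannot be told apart.

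The receptor chains of these pathways were found at a wide range of levels. They were listed as chains that bind JAK1, JAK3, or TYK2, and 5 as other chains. Levels and ratios per kb here use all annotated exons, and other lengths were not tried for these chains. All 18 chains listed reached 1 CPM in both libraries, as did 79.4% of all genes tested. *Il2rg*, the common γ chain that binds JAK3, was at 258 and 231 CPM, and per kb its mean of 102 CPM per kb was above that of *Jak3*, with a ratio of *Jak3* to *Il2rg* of 0.430 and 0.534. Of the 9 chains that bind JAK1, *Il2rb*, the β chain of the IL-2 and IL-15 receptors, was the highest at 130.2 ± 11.5 CPM per kb, *Il7r* was at 77.4 ± 0.0850 CPM per kb, and *Il9r* was the lowest at 0.614 ± 0.134 CPM per kb (SD, n = 2). *Jak1*, at 147 CPM per kb, was above each of these chains in mean level. Of the 3 chains that bind TYK2, *Ifnar1* of the type I interferon receptor was the highest at 28.2 ± 1.46 CPM per kb, and *Il12rb1* of the IL-12 receptor was the lowest at 6.34 ± 0.341 CPM per kb (SD, n = 2). *Tyk2* was thus below *Ifnar1* and above *Il12rb1*, with a ratio of *Tyk2* to *Il12rb1* of 2.16 and 2.05.

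The STAT genes other than *Stat3* were set beside a receptor chain or partner of its pathway. These ratios too use all annotated exons, and how they depend on the length used was not tested. *Stat6* and *Il4ra*, the IL-4 receptor chain, were at like levels per kb, with a ratio of 1.16 and 1.05. *Stat5b* was lower than *Il7r* and *Il2rb*, with ratios of 0.361 and 0.389 to *Il7r* and of 0.229 and 0.217 to *Il2rb*, and *Stat5a* was lower still, with ratios of 0.128 and 0.130 to *Il7r*. *Stat4* was higher than *Il12rb2*, the chain of the IL-12 receptor that recruits it, with a ratio of 7.84 and 9.31, and *Il12rb2* itself was at 7.59 and 9.54 CPM. *Stat2* was at 0.551 and 0.496 of *Irf9* per kb. Among the other chains, *Il6ra*, which binds IL-6, was lower in replicate 2 at 163 and 109 CPM, a log2 ratio of -0.58 (adjusted p = 7.84e-38, exact binomial test), *Ifngr2*, a chain of the interferon-γ receptor, had 552 and 367 counts, a log2 ratio of -0.55, and *Il15ra* was at 7.53 and 12.9 CPM, a log2 ratio of 0.78. For these 3 genes the adjusted p-values in edgeR's exact test were 0.402, 0.654, and 0.304.

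**Figure D5:**
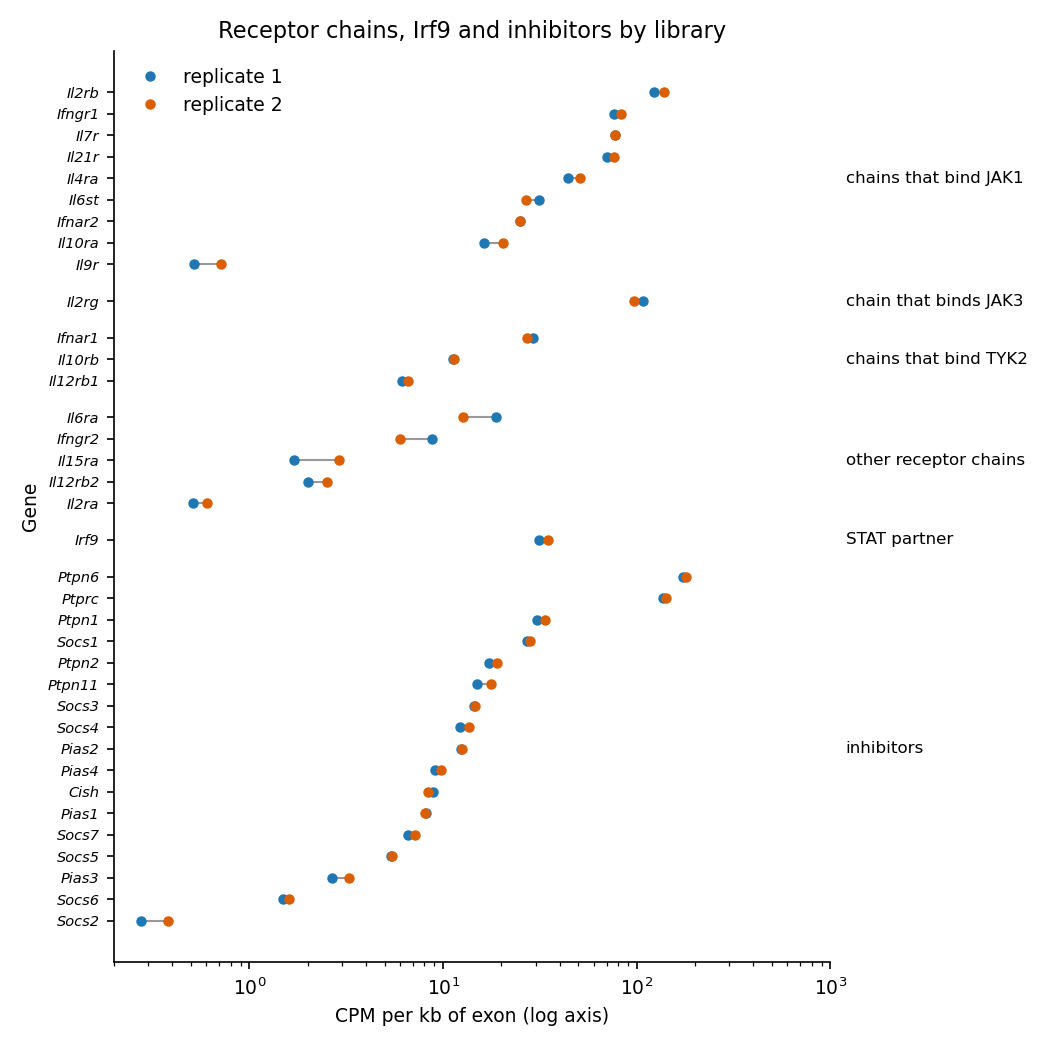
CPM per kb of exon (horizontal log axis) of receptor chains, *Irf9*, and inhibitors (vertical axis), with a point for each library joined by a line. *Il2rb* and *Il2rg* are at 130.2 and 102 CPM per kb on average, *Ptpn6* is the highest inhibitor at 176, and *Il9r*, *Il2ra*, and *Socs2* lie under 1.

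Genes that restrain the pathway were all detected. All 17 inhibitors listed reached 1 CPM in both libraries, as did 79.4% of all genes tested, and their median level was 55.2 CPM. Of the 17, 4 (*Ptprc*, *Ptpn1*, *Ptpn11*, and *Socs4*) were higher in replicate 2 at an adjusted p under 0.05 with no minimum fold (exact binomial test) while 0 were lower, beside 13.5% and 2.82% of all genes. Of the genes with at least 1000 counts, as each of the 4 had, 31.2% differed in either direction. In the exact test of edgeR 0 of the 17 were called. The inhibitors highest per kb were phosphatases, although *Ptpn11*, another phosphatase, had a mean of 16.3 CPM per kb and was below *Socs1*. *Ptpn6*, which encodes SHP-1, was at 176 ± 5.14 CPM per kb and *Ptprc*, which encodes CD45, at 139 ± 3.34 CPM per kb (SD, n = 2). Among the SOCS proteins, which block JAK kinases or their docking sites, *Socs1* was the highest at 27.5 ± 0.589 CPM per kb and *Socs3* was at 14.6 ± 0.111 CPM per kb. *Socs2* was the lowest of the inhibitors at 0.328 ± 0.0743 CPM per kb, with 44 and 59 counts.

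Genes known as STAT targets were detected as well, and most differed little between the libraries. All 13 reached 1 CPM in both libraries, as did 79.4% of all genes tested. Of the 13, 3 (*Eomes*, *Bcl2*, and *Bcl6*) were higher in replicate 2 with no minimum fold, beside 13.5% of all genes. The median log2 ratio of the 13 was 0.04. Of the genes with at least 1000 counts, as *Eomes* and *Bcl2* had, 31.2% differed in either direction. Of the 3 genes *Eomes* alone was called in the exact test of edgeR. *Bcl2*, a survival gene induced by STAT5, was at 450 and 471 CPM, and *Cish*, a feedback inhibitor induced by STAT5, was at 56.6 and 53.7 CPM. *Bcl6*, a repressor, was at 11.7 and 17.7 CPM. *Eomes* was the highest target by its mean per kb, at 47.1 and 85.3 CPM per kb, although *Bcl2*, at 49.1 and 51.4 CPM per kb, was above it in replicate 1, and *Socs2* was the lowest. The cytokines themselves were low. Of *Il2*, *Il4*, *Il7*, *Il12a*, *Il15*, and *Il21*, 0 of 6 reached 1 CPM in both libraries, and *Il7* had 0 counts, which allows up to 0.179 and 0.185 CPM. Over all 50 genes of the pathway lists, 19 differed at an adjusted p under 0.05 with no minimum fold (exact binomial test), 14 higher and 5 lower in replicate 2, beside 16.3% of all genes and 31.2% of those with at least 1000 counts. In the exact test of edgeR 1 of the 50 was called, and by the rule with 2-fold 0 were.

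STAT dimers bind a short palindrome, and the promoters of the STAT genes and of the targets were searched for it in the RefSeq sequences of GRCm38.p6, from 250 bases before to 50 after each start. The letters TTCNNNGAA, where N is any base and either strand reads the same, were found in 9.55% of 27025 genes with a promoter sequence. They were found in 0 of the 9 JAK and STAT genes and in 4 of 11 target genes with a promoter sequence, *Cish*, *Socs3*, *Bcl6*, and *Ifng*. The form with 1 more base between the arms, TTCNNNNGAA, which STAT6 can bind, was found in 8.01% of all genes, in *Stat2* alone of the 9, and in 0 of the 11 targets. The matches in *Cish*, *Socs3*, and *Stat2* are shown in stretches of 30 bases with the palindromes in capitals, from chr9:107296654-107296683 (plus strand), chr11:117969501-117969530 (minus strand), and chr10:128270278-128270307 (plus strand).
Cish: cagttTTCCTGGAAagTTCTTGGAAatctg
Socs3: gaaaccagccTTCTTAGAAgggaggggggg
Stat2: tcagtttcctTTCCCTAGAActcacggttc
*Cish* holds 2 of them side by side. The matches are letters in these windows, and binding was not measured here.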

How the data were processed

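RNA-seq of 2 libraries of 1 group was analysed. The authors selected poly(A) RNA, sequenced single-end reads of 50 bases, mapped them onto mm10 with TopHat2 2.1.1, and deposited whole-number counts of reads per gene made with HTSeq 0.6.1, without normalization. Summary lines were left out of the totals. Of 48321 symbols, 46394 were found in GENCODE M21 (GRCm38, the same build as mm10), which may not be the annotation used for counting. CPM were computed from the deposited counts, with mean and SD over the libraries, and CPM per kb with the union of annotated exons. The principal transcript was chosen by APPRIS tag, then coding length. Genes with at least 10 counts were tested for a difference between the libraries (exact binomial test, two-sided, scipy 1.17.1; Benjamini-Hochberg, statsmodels 0.14.6), a script tested on simulated data. edgeR 4.0.16 and DESeq2 1.42.0 gave the alternatives, and coding sequences were aligned with Biopython 1.88. The genes named are the 9 members, the partners, overlapping genes, and the highest, lowest, or called genes of lists of pathway genes and markers. *Ptprc*, *Ptpn1*, *Ptpn11*, *Socs1*, *Socs3*, *Socs4*, *Bcl2*, *Cish*, and the marker genes shown were chosen after their values were seen. Members and lists were chosen with earlier results of these data known. Other JAK and STAT genes were not analysed here. A result of the marker lists is not reported here.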

Additional observations from a re-analysis of the deposited data

How the results depend on the processing

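No paired analysis was possible because the design holds a single group. Of the 9 genes, 5 kept their place in the order per kb with the length of the principal transcript, with exons without overlap on either strand, and with exons without overlap on the same strand, and 2 kept it with unique 50-base windows. With 1 library left out, 7 to 9 kept their place, and without replicate 2 *Stat2* stood above *Stat4*. The ratio of *Jak1* to *Jak3* per kb was 2.99, and it was 3.31 with the principal transcript, 2.77 without overlap on either strand or on the same strand, and 2.98 to 3.01 with 1 library left out. The ratio of *Jak1* to *Tyk2* was 10.6 to 11.4 with 1 library left out, and 10.1 without overlap on either strand, and that of *Stat5b* to *Stat5a* was 2.90, 2.82 to 2.99 with 1 library left out, and 1.68 with the principal transcript and 1.59 with unique windows. Of all genes, 242 differed between the libraries by the rule with 2-fold, 60 in the exact test of edgeR (BCV 0.1), 55 with at least 100 counts, and 2596 with no minimum fold, under which 4 of the 9 genes differed. Of the 242, 150 were higher in replicate 2, against 98 of 198 with TMM library sizes and 104 of 202 with DESeq2 size factors. With totals without mitochondrial and ribosomal RNA genes it was also 104 of 202. Under those totals the mean level of *Jak1* was 1237 CPM, against 1060.1 CPM. Leaving out either of 2 libraries shows only the range of a value. The call on *Stat4* with no minimum fold held under the other scalings and minimum counts tried and not in the exact test of edgeR.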
